A study of Mus musculus with 6 samples.

Results

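This section describes the accessible chromatin of mouse lung fibroblasts grown on stiff silicone of 32 kPa against the same cells grown on tissue-culture plastic, over every region that the authors tested between those surfaces. All 64217 rows with numeric values of the deposited comparison were taken, of 68452 rows over the 3 deposited comparisons; the other 2 list 2121 and 2114 regions that set 0.2 kPa silicone against 32 kPa and against plastic. The assay was Omni-ATAC-seq: a transposase cuts DNA where protein leaves it free and adds sequencing adapters there, so that read density follows chromatin accessibility. The donors were Col1a1-GFP transgenic mice, whose GFP marks cells that use a collagen I promoter, and lung cells positive for GFP were sorted and seeded at 5000 cells per cm2 on PDMS (a silicone rubber) or plastic. Both surfaces carried the same collagen I coat at 0.1 mg/mL, the medium held 10% serum, and cells were harvested after 8 days.

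Each culture had 2 libraries of 50000 cells, 4 libraries in this comparison, and the table holds 1 mean level per culture. The spread between libraries, their depth and whether they came from separate animals are therefore not known here, and the authors' p-values measure only the spread between these libraries. The sort keeps cells with an active collagen I reporter, so fibroblasts without it are not represented, and a library is an average over its cells in which fewer open cells and less open chromatin per cell cannot be told apart. The comparison sets a stiff silicone against the far stiffer plastic, beside the study's comparisons with a soft surface.

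Fibroblasts sense the stiffness of what they adhere to through integrins and focal adhesions, which link the matrix to the actin cytoskeleton and pull on it. Tension in that link brings YAP and TAZ, cofactors of the TEAD transcription factors, and the SRF cofactors of the myocardin family into the nucleus, where they act on matrix and contractile genes. Open chromatin sits mainly at promoters, which tend to be open in many cell types, and at distal enhancers, which differ more between cell states.

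A level here is the log2 of the authors' normalised reads in a region, and a difference is the plastic level minus the 32 kPa level, so that positive values are regions more open on plastic. No region differed at a false discovery rate (FDR) of 0.05 in the authors' DiffBind test: the count was 0 of 64217, a share called of 0%, and every FDR in the authors' deposited table was 1. By the unadjusted p of the authors' deposited table, 370 regions were at 0.05 or below, 0.576% of all, with 245 higher on plastic (0.382%) and 125 higher on 32 kPa (0.195%). An unadjusted p of 0.01 or below was found at 15 regions in the authors' deposited table, and one above 0.5 at 64.7%. P-values spread evenly from 0 to 1 would put a share of 0.05 of all regions at 0.05 or below, more than the 0.576% found. All named differences below are therefore descriptions of 4 libraries that did not pass the adjusted threshold.

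Promoters of a few genes with an unadjusted p of 0.05 or below are shown first, because the sequence of a promoter and its level on both surfaces can be read side by side. Jun, Zbtb37 and Zdhhc5 are promoters more open on 32 kPa, Fastk, Nsmce3 and Dach2 are promoters more open on plastic, and Vim, Zyx and Acta2 are strongly open fibroblast and actin promoters without such a p. The first 6 are those with the highest mean level among promoters that matched a RefSeq window by position and name. Each sequence is the 200 bases before the RefSeq start of transcription in GRCm38.p6 (mm10), written 5′ to 3′ on the strand of the gene. Where a gene has several promoter regions, the strongest is given here and below unless stated. Capitals mark matches on either strand to CCAAT, the box of the factor NF-Y, to GGGCGG, the GC box of SP and KLF factors, to CCGGAAG, an ETS site, to TGANTCA, the AP-1 site, and to GGAATG, the TEAD site.

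Jun (chr4:95052223-95052422, minus strand): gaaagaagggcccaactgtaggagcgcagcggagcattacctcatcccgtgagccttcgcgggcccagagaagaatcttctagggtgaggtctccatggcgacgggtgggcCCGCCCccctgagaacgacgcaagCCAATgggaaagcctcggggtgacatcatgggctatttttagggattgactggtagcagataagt
Zbtb37 (chr1:161034850-161035049, minus strand): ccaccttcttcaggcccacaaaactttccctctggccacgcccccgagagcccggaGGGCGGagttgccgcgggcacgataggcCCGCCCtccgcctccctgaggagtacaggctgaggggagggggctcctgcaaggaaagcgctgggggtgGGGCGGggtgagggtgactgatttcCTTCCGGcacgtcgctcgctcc
Zdhhc5 (chr2:84715165-84715364, minus strand): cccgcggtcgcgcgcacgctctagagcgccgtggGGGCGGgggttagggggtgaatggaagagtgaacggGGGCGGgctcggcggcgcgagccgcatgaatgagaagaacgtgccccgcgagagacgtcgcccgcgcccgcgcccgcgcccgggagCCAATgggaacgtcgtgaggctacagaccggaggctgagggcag
Fastk (chr5:24445236-24445435, minus strand): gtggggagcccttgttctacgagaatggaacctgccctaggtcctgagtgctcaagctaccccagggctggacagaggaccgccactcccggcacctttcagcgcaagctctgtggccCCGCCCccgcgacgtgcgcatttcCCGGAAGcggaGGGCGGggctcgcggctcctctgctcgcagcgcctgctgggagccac
Nsmce3 (chr7:64873041-64873240, minus strand): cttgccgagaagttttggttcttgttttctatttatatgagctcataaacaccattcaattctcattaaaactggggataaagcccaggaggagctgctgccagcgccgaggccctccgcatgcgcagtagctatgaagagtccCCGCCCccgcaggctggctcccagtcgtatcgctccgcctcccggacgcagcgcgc
Dach2 (chrX:113298056-113298255, plus strand): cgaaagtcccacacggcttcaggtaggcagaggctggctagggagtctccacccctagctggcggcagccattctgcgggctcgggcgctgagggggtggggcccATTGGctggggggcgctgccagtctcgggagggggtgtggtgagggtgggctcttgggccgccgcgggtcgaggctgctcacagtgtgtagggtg
Vim (chr2:13574111-13574310, plus strand): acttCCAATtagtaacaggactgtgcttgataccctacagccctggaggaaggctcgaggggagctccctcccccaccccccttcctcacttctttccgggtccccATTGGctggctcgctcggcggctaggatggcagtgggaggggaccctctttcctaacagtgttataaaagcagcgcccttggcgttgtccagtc
Zyx (chr6:42349628-42349827, plus strand): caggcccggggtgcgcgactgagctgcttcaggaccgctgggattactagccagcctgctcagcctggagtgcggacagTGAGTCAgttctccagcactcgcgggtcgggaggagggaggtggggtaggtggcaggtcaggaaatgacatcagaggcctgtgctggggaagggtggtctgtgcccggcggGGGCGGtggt
Acta2 (chr19:34255374-34255573, minus strand): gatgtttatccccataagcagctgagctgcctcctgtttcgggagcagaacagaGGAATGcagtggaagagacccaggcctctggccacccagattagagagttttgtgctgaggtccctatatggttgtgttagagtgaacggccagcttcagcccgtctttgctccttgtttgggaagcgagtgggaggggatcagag

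The promoter of Jun, which encodes a subunit of the AP-1 transcription factor, had a level of 7.37 on plastic and 7.88 on 32 kPa. Its difference of -0.51 came with an unadjusted p of 0.0193 in the authors' deposited table, the lowest p of any region with a mean level between 7 and 8. Among the patterns marked, its window holds 1 CCAAT box and 1 GC box, and sites that depart from these exact letters are not marked. The levels of Zbtb37, which encodes a zinc finger protein, were 6.44 on plastic and 6.95 on 32 kPa, and those of Zdhhc5, which encodes a palmitoyltransferase, were 6.29 and 6.88.

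In the other direction, Fastk stood at 5.92 on plastic and 5.21 on 32 kPa, and Nsmce3, a subunit of the SMC5/6 complex that maintains chromosomes, at 5.91 and 5.11. Dach2, which encodes a transcription cofactor, stood at 5.31 and 4.28. These promoters were less open on either surface than those of Jun, Zbtb37 and Zdhhc5. The promoter of Vim, the intermediate filament vimentin, was among the strongest of all promoters, at 8.93 on plastic and 8.82 on 32 kPa. Zyx, the focal adhesion protein zyxin, had levels of 8.49 and 8.71, and Acta2, the smooth muscle actin of myofibroblasts, had 6.59 and 6.49. The authors' deposited table gives unadjusted p-values of 0.574 for Vim, 0.252 for Zyx and 0.722 for Acta2.

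The 64217 regions lay on 21 chromosomes, covered 13.2 Mb and had a median width of 177 bp, with an interquartile range of 123 to 253 bp. The nearest start of transcription named 18171 genes, with a median of 2 regions per gene, and 107 regions carried no gene name. The median level was 4.24 on plastic and 4.17 on 32 kPa. Across regions the levels on both surfaces had a Pearson correlation of 0.915, given as a description of 64217 regions that share 4 libraries.

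The median difference over all regions was 0.05, with an interquartile range of -0.19 to 0.33. From the 5th to the 95th percentile it ran from -0.64 to 0.85. More regions were higher on plastic (35325) than on 32 kPa (28193), and 699 were equal to 2 decimals. A difference of at least 1 in size, a doubling, was found at 2997 regions, of which 96.1% had a mean level below 4 and none had a mean level of 6 or more.

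The difference went with the level. Weakly open regions above a level of 2 tended to be higher on plastic, with a median difference of 0.45 at a mean level of 2 to 3 (4149 regions) and 0.12 at 3 to 4 (23290 regions). The 219 regions below a level of 2, of which 57 are the regions with identical values described below, had a median of -0.04, and 37.4% were higher on plastic. At a level of 5 to 6 the median was 0.01, with 50.4% of 10887 regions higher on plastic. Strongly open regions lay slightly to the other side, with medians of -0.04 at a level of 6 to 7 and -0.08 at 7 to 8, where 29.9% of 1002 regions were higher on plastic. Because level and difference moved together, many groups below are also given at equal level, that is, as the difference minus the median of all regions in the same band of level 0.5 wide.

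**Figure D1:**
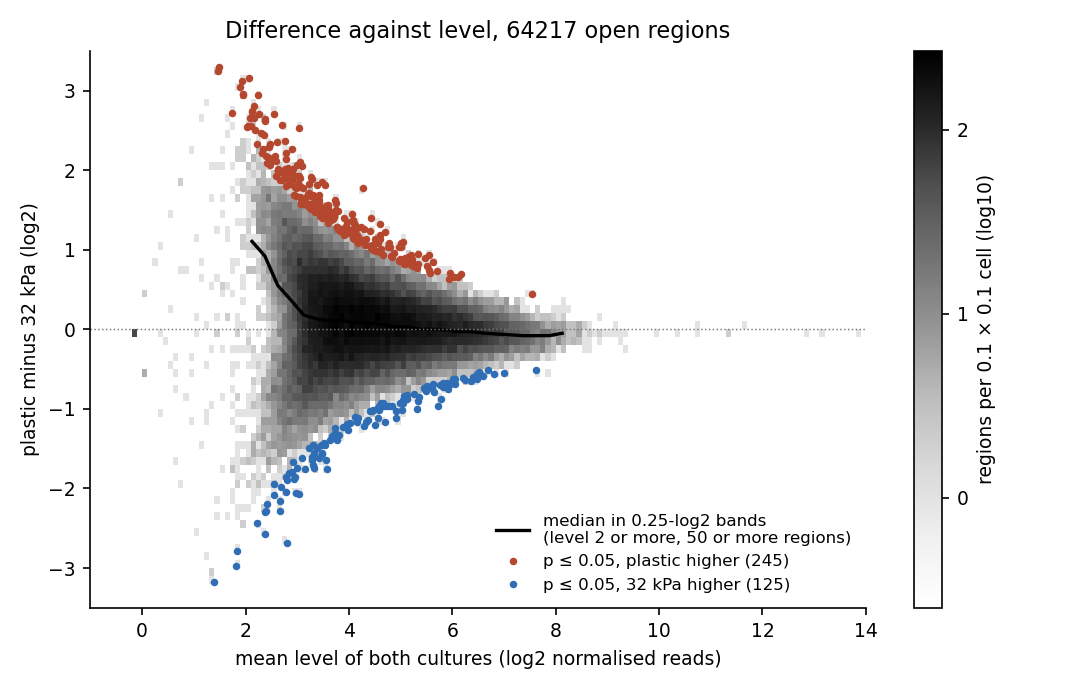
Difference in log2 level (plastic minus 32 kPa, vertical axis) against the mean log2 level of both cultures (horizontal axis) for 64217 regions, with grey cells shaded by the log10 number of regions, a black line for the median in bands of level and coloured points for regions with an unadjusted p of 0.05 or below in the authors' deposited table. The line falls from above 0 at weak regions to slightly below 0 at strong ones, and the 245 plastic-higher and 125 32 kPa-higher points form the rim of the cloud.

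What the data could show also went with the level. The smallest difference with an unadjusted p of 0.05 or below in the authors' deposited table was 1.67 at a level of 2 to 3 and 1.18 at 3 to 4. It was 0.86 at 4 to 5, 0.63 at 5 to 6, 0.51 at 6 to 7 and 0.44 at 7 to 8. The SD of the difference over regions narrowed over the same bands, from 0.95 at 2 to 3 to 0.15 at 7 to 8. At levels below 4, no difference smaller than a doubling thus had such a p, even without adjustment. These sizes are the smallest that passed and not a limit above which a difference was sure to pass. Differences without such a p reached 2.33 at 2 to 3, 1.59 at 3 to 4 and 1.18 at 4 to 5.

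**Figure D2:**
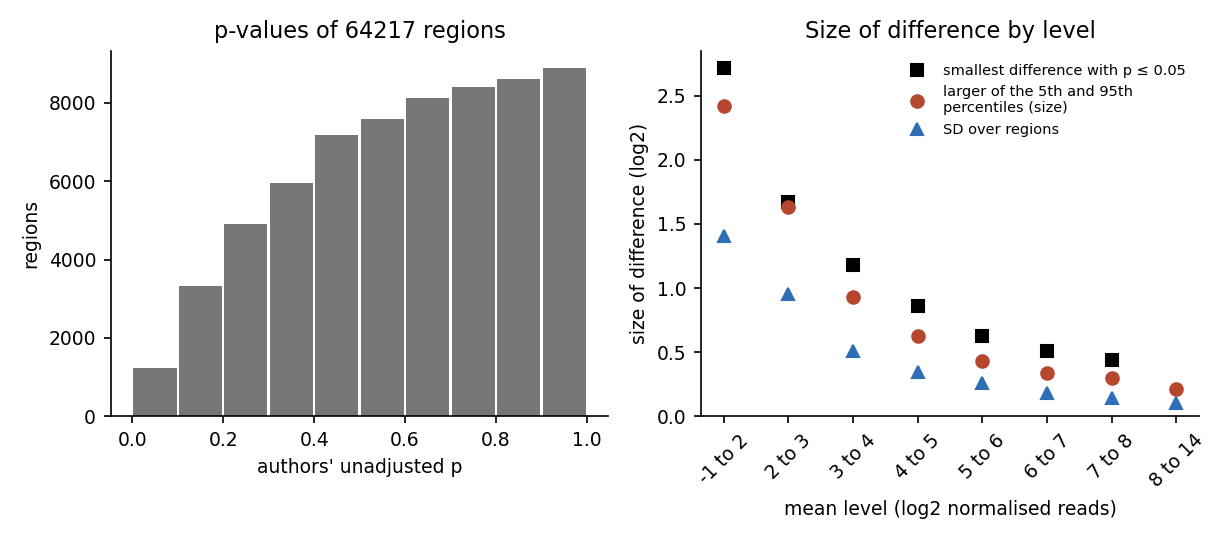
Left, number of regions by the authors' unadjusted p-value in bins of 0.1. Right, by band of mean level (log2), the smallest size of difference with an unadjusted p of 0.05 or below (squares), the larger of the 5th and 95th percentiles in size (circles) and the SD over regions (triangles). The lowest bin holds 1236 regions and the highest 8885, and all sizes shrink with level.

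At the very bottom of the table, 57 regions had the same values, a level of -0.20 on plastic and -0.16 on 32 kPa. Among them 14 were simple repeats, 6 of them of the telomeric kind. At the top stood sequences of many copies. The strongest region lay in Rn45s, the ribosomal RNA precursor, at 13.80 on plastic and 13.84 on 32 kPa, and a block of the major satellite GSAT_MM near Lrrc4c was at 12.80 and 12.85. Reads from near-identical copies cannot be assigned to 1 place, and the 10 strongest regions together held 2.32% of the summed linear level on plastic and 2.41% on 32 kPa.

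Promoters made up 12568 regions, 19.6% of all, and were the most open class, with a median level of 5.27. They were 760 of the 1000 strongest regions. Their median difference was -0.01, with 5992 higher on plastic and 6366 on 32 kPa. Of the summed linear level, promoters held 34.8% on plastic and 35.9% on 32 kPa. The strongest were Evi5l at 9.05 and 9.08, 4932412D23Rik at 8.87 and 8.90, Leprot at 8.86 and 8.91, Vim, and Khsrp, which encodes an RNA-binding splicing factor, at 8.76 and 8.88.

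Intergenic regions (24616) and introns (23885) had median levels of 3.96 and 4.03 and median differences of 0.08 and 0.06. At equal level the medians were 0.01 for intergenic regions, -0.01 for introns and -0.01 for promoters, so the classes lay within 0.02 of each other once regions of the same level were compared. Exons (871 regions) came to 0.03 at equal level, and regions at transcription ends (783) to 0.02. By distance, the 10304 regions more than 100000 bases from any start had a median difference of 0.13, and 0.05 at equal level. CpG islands outside the other classes (1630 regions) had a median difference of 0.04, and 0 at equal level.

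Among promoters, 37 had an unadjusted p of 0.05 or below in the authors' deposited table, 0.294% of promoters against the 0.576% of all regions. On 32 kPa 23 of these were higher and on plastic 14, whereas over all regions the larger number was on plastic. Those higher on 32 kPa had a median level of 5.94. They included Eif5a2, a translation factor of the hypusine-carrying family (6.04 on plastic and 6.69 on 32 kPa), Thumpd3 (6.16 and 6.78), Ubxn2a (5.70 and 6.35), Psmd12, a proteasome subunit (5.42 and 6.12), and Ugcg, the enzyme of glucosylceramide synthesis (5.55 and 6.30). The histone gene Hist1h2ac was at 6.26 and 6.82.

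The 14 higher on plastic had a median level of 4.14. They included the transcription factor Maf (5.12 on plastic and 4.11 on 32 kPa), the receptor kinase Alk (4.75 and 3.59), the corticotropin-releasing hormone receptor Crhr2 (4.13 and 2.65) and the costimulatory receptor Cd40 (3.83 and 1.80). Sh3bgr stood at 5.92 and 5.03. The authors' deposited table gives unadjusted p-values of 0.0335 for Maf and 0.0224 for Cd40. These genes were named after their values were seen. Maf and Cd40 are also known from macrophages and other leukocytes. Of 12 leukocyte markers 8 had 16 regions with a median difference of 0.04, and the only marker promoter, that of the lysozyme gene Lyz2, was at 4.29 on plastic and 5.01 on 32 kPa, and the part of such cells was not tested.

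The regions with the lowest p lay away from promoters. In the authors' deposited table the lowest of all, 0.000997, belonged to a region chr6:87005696-87005946 in an MRLTR33 element 4015 bases upstream of Nfu1, which encodes an iron-sulphur cluster scaffold. Its level was 5.17 on plastic and 3.39 on 32 kPa. An intron of Col20a1 was at 4.29 and 1.76, and a region 4888 bases upstream of Hoxb5os, a noncoding RNA of the Hoxb cluster, at 4.44 and 2.63. On the 32 kPa side, a region 28063 bases from the start of Elf3, an epithelial ETS factor, was at 1.46 on plastic and 4.14 on 32 kPa, and one 5179 bases upstream of Vps13d at 5.25 and 6.21. An intron of Tram2, whose product helps to make collagen in the endoplasmic reticulum, was at 2.70 and 4.45. The 3 named on the 32 kPa side have unadjusted p-values of 0.00309, 0.00447 and 0.00839 in the authors' deposited table.

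Among 5703 regions with a mean level of 6 or more, 22 (0.386%, against 0.576% of all regions) had an unadjusted p of 0.05 or below in the authors' deposited table, 4 higher on plastic and 18 on 32 kPa. The largest differences toward plastic were 0.69 in an RMER6D element near Fstl5 and 0.66 both in an intron of Atrnl1 and near Adcy1. The largest toward 32 kPa were -0.69 in an intron of Fam98a, -0.65 at the promoters of Eif5a2 and Ubxn2a, -0.64 near C430002N11Rik and -0.62 at the promoter of Thumpd3 and in introns of Nuak1 and Ccdc170. They were followed by -0.61 at an intron region 89626 bases from the start of Timp3, a metalloproteinase inhibitor. Its level was 5.90 on plastic and 6.51 on 32 kPa. Intron regions are named throughout for the gene of the nearest start, which may not be the gene that holds the intron.

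The gene lists follow the roles of the pathway, from the matrix to the adhesion, the signal and its targets, and each is read against the median of 0.05 and the 0.576% of all regions. No list had a region at the FDR threshold. The list medians ran from -0.08 to 0.17, all within the interquartile range of all regions, and at equal level from -0.14 to 0.15. A region is given to the gene of its nearest start, so a distal region may belong to another gene.

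**Figure D3:**
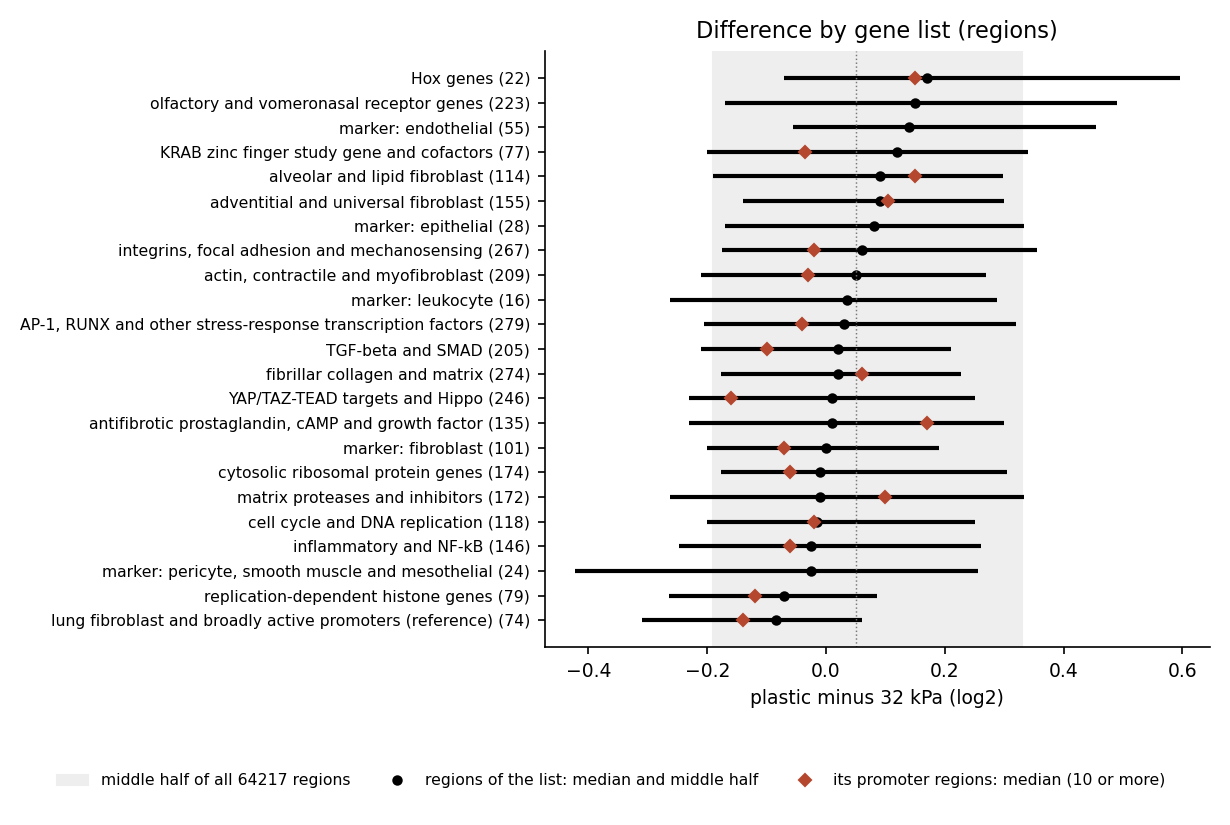
Difference in log2 level (plastic minus 32 kPa, horizontal axis) for the regions of each gene list (number of regions in parentheses): points are medians, bars the interquartile range, diamonds the median of promoter regions where a list has 10 or more. The grey band is the interquartile range of all 64217 regions and the dotted line their median of 0.05, and every list's median lies inside the band.

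For collagens and other matrix genes, 36 of 37 listed genes had 274 regions, with a median difference of 0.02 and 144 regions higher on plastic. The Col1a1 promoter, whose sequence also drives the GFP transgene so that both copies may be counted, was at 5.60 on plastic and 5.27 on 32 kPa. Col1a2, the partner chain of collagen I, had its promoter at 6.15 and 5.94, and Col3a1, the collagen III chain, at 4.03 and 4.13. Lox, which crosslinks collagen, had the strongest promoter of the list, at 6.98 and 7.42, a difference of -0.44. With 3 of the 274 regions (1.09%), the list had unadjusted p-values of 0.05 or below in the authors' deposited table upstream of Col14a1 (2.07, plastic higher), upstream of the proteoglycan Dcn (-1.86) and at the transcription end of Thbs1 (0.93).

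The matrix proteases and their inhibitors, which turn the matrix over, had 172 regions with a median difference of -0.01. The promoter of Mmp14, a membrane-bound collagenase, was at 5.44 on plastic and 5.64 on 32 kPa, and that of Timp1, an inhibitor, at 5.68 and 5.78. Regions named for Timp3 had opposite signs. Beside the region already named, a weak region far upstream of the Timp3 start, also annotated as intron, was at 3.09 on plastic and 0.37 on 32 kPa.

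Of the integrin and focal adhesion genes, 33 of 34 had 267 regions, with a median difference of 0.06. No region of the list had an unadjusted p of 0.05 or below in the authors' deposited table. The promoter of Itgb1, the common beta subunit of collagen and fibronectin receptors, was at 6.84 on plastic and 6.62 on 32 kPa. Vcl, the adhesion protein vinculin, was at 6.96 and 7.13, Tln1, the integrin activator talin, at 6.26 and 6.71, and Ptk2, the focal adhesion kinase, at 6.36 and 6.34. The promoter of Lmna, the nuclear lamin known to scale with tissue stiffness, was at 6.06 and 5.78.

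The actin, contractile and myofibroblast genes (33 of 35 measured, 209 regions) had a median difference of 0.05, the same as all regions. Beside Acta2, the promoter of Tagln, an actin-binding protein of smooth muscle, was at 6.41 on plastic and 6.34 on 32 kPa. The promoter of Myh9, the nonmuscle myosin heavy chain, was at 8.13 and 8.18, and that of Srf, the factor that drives these genes, at 6.78 and 6.89. Among the 38 promoters 16 were higher on plastic and 22 on 32 kPa. A distal region near Tpm1, a tropomyosin, was the only one of the 209 (0.478%) with an unadjusted p of 0.05 or below in the authors' deposited table, at 4.16 and 2.74.

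YAP and TAZ targets with their Hippo regulators (31 of 32 measured, 246 regions) had a median difference of 0.01, and none of their regions had an unadjusted p of 0.05 or below in the authors' deposited table. Their promoters had a median of -0.16, with 12 higher on plastic and 21 on 32 kPa. At equal level that median was -0.10, and the median over all promoters was -0.01. Also at equal level, promoters of replication-dependent histone genes had -0.15, and the reference list of lung fibroblast and broadly active genes had -0.14. Those of the alveolar and lipid fibroblast list lay to the plastic side, with 0.12. The promoter of the cardiac ankyrin repeat protein Ankrd1, a widely used YAP target, was at 5.90 on plastic and 6.19 on 32 kPa. Amotl2, an angiomotin that binds YAP, was at 6.22 and 6.56, and Wwtr1, the gene of TAZ, at 6.94 and 7.12. The region chr10:24595341-24595930, which lies at Ccn2 but has no gene name in the table and so is in no count, was at 6.61 and 6.79.

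The TGF-beta and SMAD list (30 of 31 measured, 205 regions) had a median difference of 0.02 and no region with an unadjusted p of 0.05 or below in the authors' deposited table. Of its 28 promoters 8 were higher on plastic and 20 on 32 kPa, with a median of -0.10, or -0.09 at equal level. The receptor promoter of Tgfbr1 was at 7.30 on plastic and 7.49 on 32 kPa. The repressors Skil and Ski, which hold SMAD targets down, were at 7.45 and 7.85 and at 7.18 and 7.51. Id2, a target that blocks other helix-loop-helix factors, was at 6.18 and 6.70.

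Stress-response transcription factors (AP-1, RUNX, KLF and others, 37 of 37 measured) had 279 regions with a median difference of 0.03. Of their 42 promoters 18 were higher on plastic and 23 on 32 kPa, with a median of -0.04. The promoters of Fosl2 (7.51 on plastic and 7.67 on 32 kPa), Junb (6.33 and 6.46) and Atf3 (6.42 and 6.63) differed in the same direction as that of Jun by 0.13 to 0.21, whereas those of Batf3 (a difference of 0.43) and Mafk (0.37) were higher on plastic. Egr1, an immediate early gene, was at 6.36 and 6.32. A region far from Klf6 (4.33 and 2.96) and the Jun promoter were the 2 of 279 (0.717%) with an unadjusted p of 0.05 or below in the authors' deposited table.

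Alveolar, adventitial and antifibrotic gene lists are described by their promoters and by all of their regions. Of 14 promoters in the alveolar and lipid fibroblast list 10 were higher on plastic, with a median of 0.15, or 0.12 at equal level, beside 0.09 over its 114 regions. Tcf21, a transcription factor of the lipid-storing fibroblast, was at 5.27 on plastic and 4.88 on 32 kPa, and Wnt2 at 4.24 and 3.53. Fabp4, among the 4 promoters higher on 32 kPa, was at 3.96 on plastic and 4.33 on 32 kPa. Of 14 promoters in the adventitial list 10 were also higher on plastic, with a median of 0.11, the same at equal level, beside 0.09 over 155 regions, among them Gli2 (5.58 and 4.99) and Ebf1 (5.78 and 5.25). Of 19 promoters in the list of antifibrotic prostaglandin, cyclic nucleotide and growth factor genes 12 were, with a median of 0.17, or 0.13 at equal level, beside 0.01 over 135 regions. Gucy1b1, a subunit of the nitric oxide receptor, was at 6.49 and 5.95. The first and the last of these lists share Fgf10, and in none of the 3 did a promoter have an unadjusted p of 0.05 or below in the authors' deposited table.

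Inflammatory and NF-kB genes (146 regions) had a median difference of -0.03, and cell cycle and replication genes (118 regions) -0.02. The promoter of Il6 was at 4.94 on plastic and 5.15 on 32 kPa, and that of Nfkbia, the inhibitor of NF-kB, at 5.65 and 6.06. Pcna, the sliding clamp of replication, was at 6.63 and 6.91, whereas the promoter of Mcm6, of the same list, was at 5.56 and 5.09. Of 39 promoters in the cell cycle list 17 were higher on plastic and 22 on 32 kPa. Of 16 in the inflammatory list 7 were higher on plastic and 9 on 32 kPa. The proliferative state of the cells was not measured in these files.

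Replication-dependent histone genes had 79 regions with a median difference of -0.07, and of their 49 promoters 32 were higher on 32 kPa and 14 on plastic, with a median of -0.12. Histone genes share near-identical stretches, which makes their reads uncertain. Lung fibroblast and broadly active genes listed as a reference had a median of -0.14 over 22 promoters, and the same -0.14 at equal level. Of these promoters 18 were higher on 32 kPa. Examples are Gapdh (6.38 on plastic and 6.70 on 32 kPa, with a weaker promoter region at 5.37 and 5.22) and Canx (6.71 and 7.03). Cytosolic ribosomal protein genes had a median of -0.06 over 81 promoters.

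Hox genes (22 regions in 16 genes) and olfactory and vomeronasal receptor genes (223 regions in 126 genes) had the highest list medians, 0.17 and 0.15. At equal level these were 0.15 and 0.07. The list of KRAB zinc finger genes and cofactors had 77 regions with a median of 0.12, and its 26 promoters -0.04. No region carried the name Zfp416, the mouse name of the zinc finger gene in the study's title. Trim28, the corepressor that KRAB zinc finger proteins bind, had promoter regions of opposite sign, at 5.40 on plastic and 5.65 on 32 kPa and at 5.10 and 4.72, and Setdb1, a histone H3 lysine 9 methyltransferase, at 3.98 and 4.54.

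The fibroblast label was checked against marker promoters, counting regions that the table annotates as promoter. Of 15 fibroblast marker genes 13 had an open promoter, with a median level of 5.08 over genes. Only 3 of 14 epithelial, 2 of 12 endothelial, 1 of 12 leukocyte and 1 of 10 pericyte, smooth muscle and mesothelial marker genes had one. Those were Foxj1, Krt19 and Hopx, Tek and Kdr, Lyz2, and Myh11, the smooth muscle myosin. The Myh11 promoter was at 5.45 on plastic and 5.25 on 32 kPa. The count depends on that annotation: Kcnj8, a potassium channel of pericytes, had a region annotated as 5' UTR at 4.75 on plastic, with a difference of -0.25. The median difference over all regions of a marker list was 0 for fibroblasts, 0.08 for epithelium (28 regions), 0.14 for endothelium (55) and -0.03 for the pericyte, smooth muscle and mesothelial list (24). With regions of any annotation counted, 15 of 15 fibroblast, 12 of 14 epithelial and 12 of 12 endothelial marker genes had one. So did 8 of 12 leukocyte genes and 10 of 10 of the pericyte, smooth muscle and mesothelial list. Some were strongly open, such as an intergenic region of the endothelial marker Cdh5 at 6.92 on plastic and 6.91 on 32 kPa. Leukocyte genes with no region at all were Cd68, Cd3e, Tyrobp and Cd52, and the alveolar epithelial genes Sftpc and Ager also had none.

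Repeats gave the largest departures by sequence class. Regions in an annotated repeat (8618) had a median difference of 0.11, and 0.03 at equal level, against -0.01 at equal level for the others. Of 769 regions in the SINE B2 family, short elements copied from a tRNA-like ancestor, 549 were higher on plastic and 214 on 32 kPa. Their median difference was 0.24, and 0.12 at equal level. The share higher on plastic stayed above that of all regions from a level of 2 to a level of 6: 73.4% at a level of 2 to 3, 70% at 3 to 4, 73.1% at 4 to 5 and 75% at 5 to 6, where all regions gave 61.8%, 59%, 56.5% and 50.4%. Of the 6 B2 regions with an unadjusted p of 0.05 or below in the authors' deposited table (0.78%, against 0.576% of all regions), all were higher on plastic, and 5 were of the B3 subfamily.

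The ERVK class of endogenous retrovirus, whose long terminal repeats carry promoter and enhancer sequence, had 941 regions with a median difference of 0.16, and 0.07 at equal level. Within it 71 of 88 RMER6C regions were higher on plastic, with a median of 0.34, and 0.23 at equal level. Of 77 elements with at least 25 regions only MTE2a (25 regions, 0.24) had a higher median at equal level. L1_Mus3 (0.21), RMER5 (0.20) and Lx7 (0.18) came close to RMER6C. At equal level 46 of the 77 medians were above 0, 28 were below and 3 were at 0. RMER6D, with 22 regions, had 19 higher on plastic, whereas RMER6A, with 55, had 31. RMER6D elements held the regions near Olfr827 (a difference of 2.57) and Fstl5 (6.52 on plastic and 5.83 on 32 kPa), both with an unadjusted p below 0.05 in the authors' deposited table. These elements were singled out after their values were seen.

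Not all repeats leaned that way. L1 elements (1403 regions) had a median of 0.02 at equal level, ERV1 (371) 0.01 and MaLR (1438) 0.01. Single elements could differ from their class, such as RMER5 of ERV1, with 0.20. Simple repeats (211) were lower on plastic, with a median difference of -0.04, and -0.09 at equal level, and satellites (87) were at -0.04 and 0. Reads of 51 bp may not place a young repeat uniquely, and the sources used here do not say how the authors treated such reads.

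**Figure D4:**
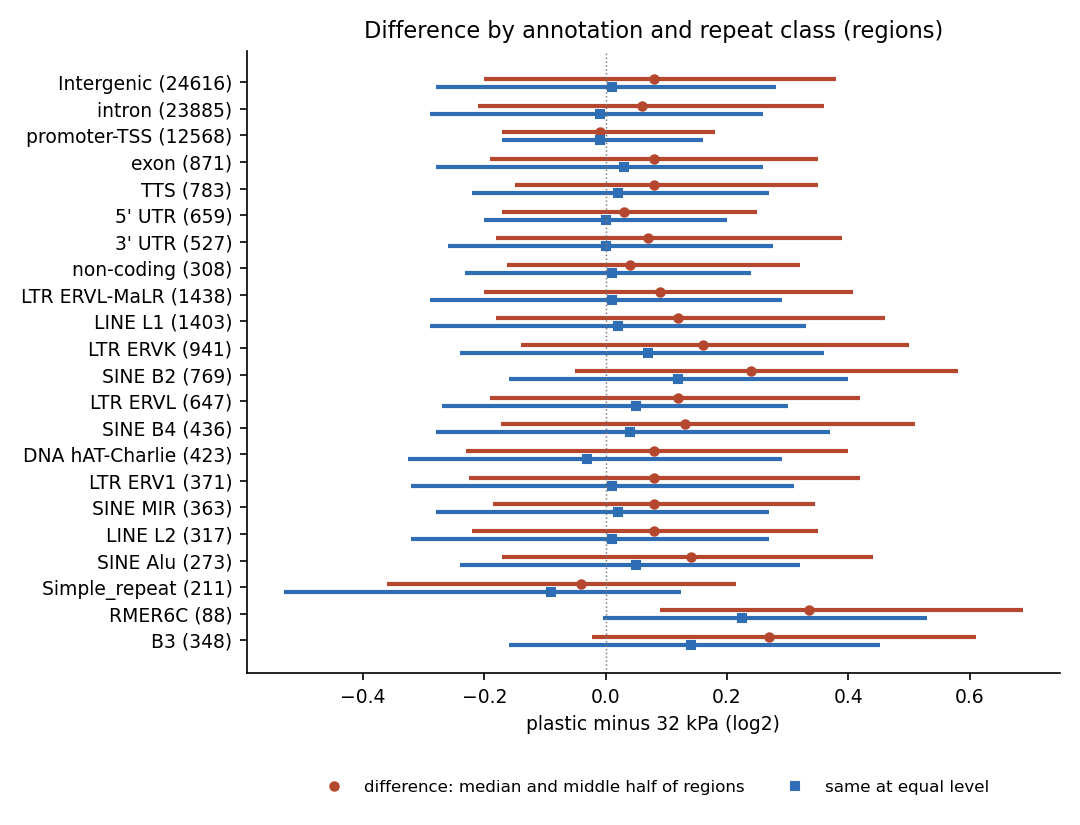
Difference in log2 level (plastic minus 32 kPa, horizontal axis) by annotation and repeat class, with the number of regions in parentheses: circles and their bars are the median and interquartile range, squares and their bars the same at equal level. The medians of the annotation classes lie within 0.03 of 0 at equal level, whereas B2, its subfamily B3 and RMER6C stay on the plastic side.

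By chromosome, the medians of the 19 autosomes and X ran from 0.01 to 0.08, and at equal level from -0.04 to 0.03. Chromosome Y had 14 regions with a median of 0.42. Of these 13 are named for G530011O06Rik and Erdr1, the latter in the part of Y that is shared with X.

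One stretch of chromosome 1 differed from its surroundings. From chr1:84956874-85625961, 104 of 110 regions were higher on plastic and 6 on 32 kPa, with a median difference of 0.55, and 0.46 at equal level. The stretch runs from regions named for Slc16a14, a transporter gene, through A530032D15Rik, Gm7609 and C130026I21Rik to Sp110 and Sp140, which are related to the nuclear body protein Sp100. Within the stretch, regions higher on plastic were 10 of 10 for Slc16a14, 15 of 16 for A530032D15Rik and 14 of 15 for Gm7609. They were 33 of 34 for C130026I21Rik and 31 of 34 for Sp110. The stretch starts between regions named for Slc16a14, and those of that name just before it had differences of -0.20 and 0.06. The 10 regions on either side had medians of -0.04 and -0.05, with 4 of 10 higher on plastic each. The ends of the stretch were chosen after these values were seen, so the contrast with its flanks follows in part from that choice. The strongest regions carried the same sign: all 18 at a level of 5 to 6 were higher on plastic, and so were the 4 at 6 to 7 and the 2 at 7 to 8.

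An upstream region of C130026I21Rik was at 6.46 on plastic and 5.91 on 32 kPa, and an intron of A530032D15Rik at 6.92 and 6.48. Of the 110 regions 7 (6.36%, against 0.576% of all regions) had an unadjusted p of 0.05 or below in the authors' deposited table. The stretch was chosen by its differences, on which these p-values also rest, so this share is no separate support. The window chr1:85000001-85500000 held 72 regions and a median of 0.50 at equal level. Among 2901 windows of 500000 bases with at least 10 regions, the 5th to 95th percentiles of that median were -0.21 and 0.22, and the only one above it, on chromosome 4 at Dmrta2, Elavl4 and Agbl4, held 11 regions. The Sp100-related genes occur in near-identical copies, so the placing of reads among them is uncertain, and whether both cultures drew on the same donors is not given.

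**Figure D5:**
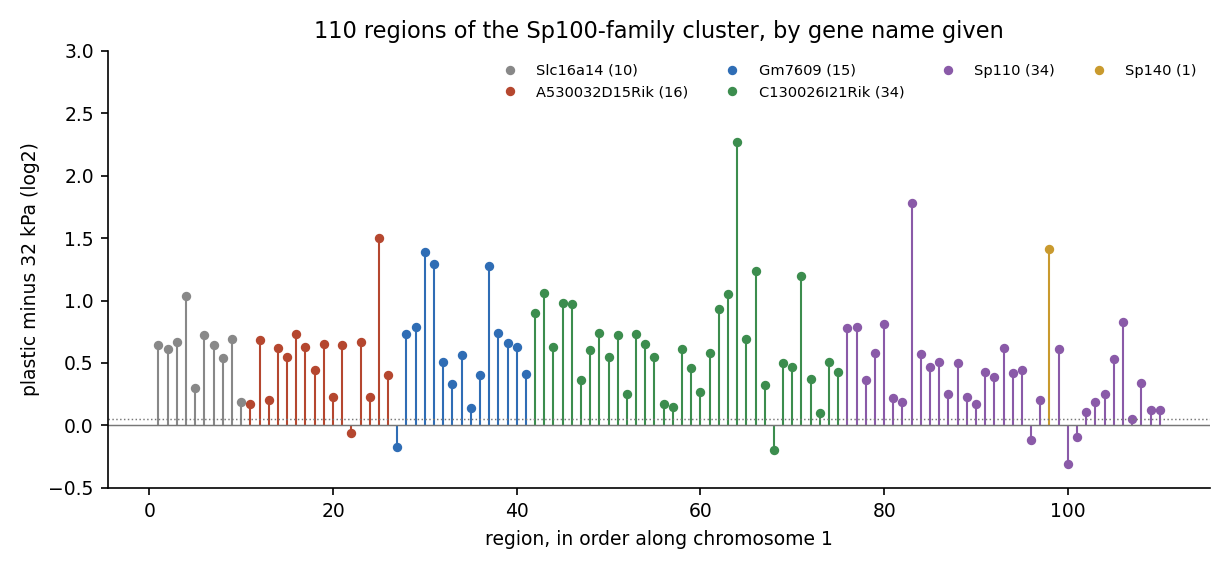
Difference in log2 level (plastic minus 32 kPa, vertical axis) of 110 regions in their order along chromosome 1 (horizontal axis), coloured by the gene name that the table gives. In all 104 points lie above 0 and 6 below, and the dotted line is the median of all regions, 0.05.

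Genes with many regions were otherwise mixed. Of 4387 genes with at least 5 regions, 60.5% had a median above 0. In 135 of them every region was higher on plastic, and in 42 every region was higher on 32 kPa. Cdh13, a cadherin without a cytoplasmic tail, had 12 of 12 regions higher on plastic, with a median of 0.63, and A730020M07Rik had 11 of 11 higher on 32 kPa, with a median of -0.20. Among the highest medians were those of Grin3a, a glutamate receptor subunit (1.20), Kazald1 (1.03) and Ptpn20 (0.86), each over 5 regions with a median level below 4, and the lowest were those of Endod1 (-0.76), Luzp4 (-0.74) and Mcc (-0.70). The genes with the most regions, Frmd4a (40), Tns3 (38), Mir101c (38) and Bmper, a BMP antagonist (36), had medians of 0.12, 0.12, -0.07 and 0.04. Of the 38 regions named for Mir101c 31 were higher on 32 kPa.

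Promoter sequence was compared by matching regions to RefSeq windows of 250 bases before and 50 after each start. Of 32851 windows 8778 overlapped a region by at least 150 bases, through 7290 regions. Matched windows were richer in G and C, with a median of 62.7% against 49.3% in windows without a region. The GC box was in 72.4% of the 7290 matched promoters and in 35.7% of all windows, the ETS site in 20.5% and 8.86%, and CCAAT in 43.3% and 37.4%. AP-1 sites were in 5.16% and 7.81%, and TEAD sites in 11.2% and 14.7%. Matches of different motifs can overlap, and a match is only a description of the window.

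The CCAAT box was more frequent at higher levels from a level of 4. It was in 35.3% of 136 matched promoters at a level of 3 to 4, in 30.8% of 1523 at 4 to 5, 38.3% at 5 to 6, 52.4% at 6 to 7, 60.5% at 7 to 8 and 76.2% of the 63 at 8 or more. GC boxes went from 57.4% at 3 to 4 to 84.6% at 7 to 8 and 84.1% at 8 or more. By difference the picture was uneven. Of the 384 promoters most to the 32 kPa side (the lowest 5% of differences) 27.6% held CCAAT, against 44.3% in the middle and 40.3% of the 387 most to the plastic side. With tails taken at equal level the shares were 25.3% and 41.7%. AP-1 sites were in 6.51% of the 32 kPa tail, 4.86% of the middle and 8.79% of the plastic tail, and TEAD sites in 10.9%, 11.1% and 12.7%. The AP-1 shares rest on 25 and 34 promoters in the tails. Both tails hold weaker promoters than the middle, with median levels of 5.05 and 4.78 against 5.83.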

How the data were processed

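Omni-ATAC-seq libraries of 51 bp paired reads were compared between 32 kPa PDMS and plastic, with samples grouped by the culture in their labels. Per the submitters' processing notes, the authors used BWA, Picard, MACS2 and DiffBind on the mm10 build; versions, the shift of reads for the transposase, the treatment of reads with several placements and the scaling of libraries are not given in the sources used here. Per the file headers, the deposited table gives for each region a log2 mean of normalised reads per culture, their log2 difference, and the p-value and FDR of the authors' DiffBind test, with gene, distance and annotation from HOMER annotatePeaks. The deposited difference equalled the plastic minus the 32 kPa level within 0.01 at all 64217 regions. The files give no depth for a library, and counting intervals were therefore not computed.

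From the deposited values, 1 repeated header row was dropped, and medians, counts and quartiles were computed with Python 3.11.15, pandas 2.3.3 and numpy 2.4.6. Matplotlib 3.10.9 drew the figures. The mean level is that of both cultures, and a difference at equal level is the difference minus the median of its band of level 0.5 wide. No test of differences other than the authors' was run. The level adjustment was tested on simulated data. Promoter sequences are from RefSeq (GRCm38.p6), matched by at least 150 bases.

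Named regions and genes are the 8 per direction with the lowest p, since none passed the FDR; the 8 per direction with the largest difference at a level of 6 or more; the 10 strongest regions; the 8 genes with the most regions; the 5 highest and 5 lowest gene medians; and, per list, the strongest regions of the first 6 members and the extremes. Promoters of list members, and promoters with a p of 0.05 or below, were added after their values were seen. The members and the 23 gene lists were chosen with earlier results of these data known. Alternatives were stricter and looser thresholds, a minimum level, centring, autosomes only, linear sums, promoters or regions within 10 kb, genes with at least 10 regions and tails of 1%. Comparisons with 0.2 kPa were not used here beyond their counts.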

Additional observations from a re-analysis of the deposited data

How the results depend on the processing

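No region was called at an FDR of 0.01 or 0.1, with a difference of at least 1 added, or at a level of 4 or more, and 370 had an unadjusted p of 0.05 or below, which is the authors' own value without adjustment. The median over all regions was 0.02 at a level of 4 or more and 0.05 on autosomes, and the log2 ratio of summed linear levels was 0.02. Of 23 gene lists 15 had a median above 0, but 8 after centring on the median of all regions and 8 at equal level (the latter chosen after seeing the data), as centring moves each list by 0.05. All 21 chromosomes had a median above 0, against 10 at equal level, also chosen afterwards. The share of the plastic tail with an AP-1 site was 13.6% with tails of 1%, against 8.79%, and the cause was not tested. The chromosome 1 stretch, whose ends were chosen after seeing the data, had a median of 0.51 at a level of 4 or more. Restricting lists to promoters changed the sign of 9 of 23 medians. No paired analysis was possible because the table holds 1 mean per culture, and for the same reason no library could be left out. With 2 libraries per culture, no difference below the smallest sizes given by band had an unadjusted p of 0.05 or below in the authors' deposited table. Some larger differences also lacked such a p.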

Other observations

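Other stretches leaned the same way over fewer regions. Toward plastic, the window of chromosome 5 around Adamts3, Gm7056 and Npffr2 had 12 of 14 regions higher on plastic, with a median of 0.47 at equal level, and that of chromosome 15 around Khdrbs3 and Mir30d 12 of 12, with 0.45. Part of the large gene Tns3, whose product links integrins to actin, had 15 of 17 regions higher on plastic in the window chr11:8000001-8500000, with 0.44 at equal level, although the median over all 38 Tns3 regions was 0.12. Toward 32 kPa, the window of chromosome 4 that holds Susd1, Ugcg and Shoc1 had 19 of 23 regions higher on 32 kPa, with -0.40 at equal level, and that of chromosome 1 around Npl, Glul and Rgs8 had 18 of 26, with -0.46. These windows were chosen after their values were seen, and none held a region at the FDR threshold.

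Slc16a1, a lactate transporter, had a median difference of -0.40 over 10 regions, and Adamts15, a matrix protease, of -0.35 over 11. Sorcs3, a sorting receptor, had 0.80 over 12 regions, and Sox6, a transcription factor, 0.69 over 10. Promoters of noncoding RNA genes (659 regions) had a median level of 4.96 and a median difference of -0.02, beside 5.29 and -0.01 for 11847 promoters of protein-coding genes.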
